A study of Mus musculus with 9 samples.

Results

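The levels of 10 genes of mitochondrial fusion, fission and mitophagy were followed while mouse adipocyte precursors became beige adipocytes, fat cells that can burn fuel for heat. The genes are Mfn1, Mfn2, Opa1 and Oma1 of the fusion machinery, Dnm1l, Fis1, Mff and Mtfp1 of the fission machinery, and Pink1 and Fundc1 of mitophagy. They were taken by symbol from a table of 55359 genes, each matched 1 row, and all 10 had enough counts to be tested among 14649 genes. Mitochondria join and divide continually: mitofusins merge the outer membranes, OPA1 merges the inner membranes and shapes the cristae, and the dynamin DRP1 constricts the organelle until it splits. In mitophagy a damaged or surplus mitochondrion is marked, by the kinase PINK1 or by receptors such as FUNDC1, and handed to the autophagosome. In thermogenic fat these processes are known to shape the mitochondria during adrenergic stimulation and to remove them when beige cells turn white.

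The cells were precursors isolated from mouse inguinal white adipose tissue, a subcutaneous depot, and 9 libraries of total RNA were sequenced, 3 per group. Day 0 cells were not induced. Day 4 and day 8 cells had received a medium with dexamethasone, 3-isobutyl-1-methylxanthine, indomethacin, insulin, triiodothyronine and rosiglitazone for 2 days, and after that a maintenance medium without the first 3 agents. The labels give no strain, sex, age or number of animals and do not state whether replicates are separate cultures. P-values therefore refer to the variation among these 9 libraries, part of which may be technical.

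Total counts ranged from 26387408 to 31474490 per library. Levels are counts-per-million (CPM) values of the TMM-scaled library, where TMM is a scaling that evens out libraries by the bulk of their genes. All 9 libraries are labelled as preadipocytes. The summed level of 8 adipocyte marker genes was 73.0 to 95.5 CPM at day 0, 20690 to 37980 at day 4 and 27610 to 30050 at day 8, so the libraries labelled as preadipocytes at days 4 and 8 held adipocyte RNA. Summed levels of 7 thermogenic markers, among them Ucp1, were 1.45 to 1.52 CPM at day 0, 222 to 768 at day 4 and 1422 to 2349 at day 8. The lowest of these sums were in replicate 2 at day 4 and replicate 3 at day 8. Day 4 replicate 2 stood apart: its adipocyte sum of 20690 CPM compares with 37980 and 34020 in the other day 4 libraries. Its sum of 8 precursor markers was 2137 CPM against 841 and 960, and 1132 CPM of it came from Ly6a. Precursor sums were 2244 to 2419 CPM at day 0 and 669 to 899 at day 8. At day 4 against day 0, Cd34, Ly6a and Dlk1 were higher and Pdgfra, Pdgfrb and Thy1 lower (edgeR adjusted p under 0.05). Of the other cell types, 6 lymphocyte markers summed to at most 0.404 CPM in any library, with Cd3g and Ms4a1 among those at 0 throughout. Summed macrophage markers spanned 39.2 to 85.6 CPM at day 0, 44.1 to 66.5 at day 4 and 9.44 to 46.1 at day 8. Lyz2 was the largest part on average, with means of 49.2, 42.8 and 17.3 CPM, and its differences between days did not pass. At day 8 against day 4, Cd68 was higher (edgeR adjusted p = 0.0278) and Mrc1 lower (0.0393), and Cd14 was lower at day 8 than at day 0 (0.0230). The leukocyte antigen gene Ptprc averaged 0.192, 0.0783 and 0.155 CPM at days 0, 4 and 8. Endothelial sums were 11.5 to 15.5, 2.55 to 10.6 and 1.81 to 2.73 CPM, mural sums 26.7 to 35.7, 26.3 to 35.6 and 38.3 to 45.0 CPM, and mesothelial sums 16.0 to 21.4, 19.0 to 43.5 and 29.9 to 50.5 CPM, the last almost wholly from Krt19. Tek made up most of the endothelial sums, with means of 10.6, 4.38 and 1.57 CPM, while Pecam1 averaged 0.340, 0.151 and 0.476 CPM. The mural genes ran in opposite directions. Mean levels at days 0 and 8 were 3.94 and 14.7 CPM for Cspg4, 16.5 and 24.5 for Notch3, and 8.30 and 1.84 for Myh11. The part of these cells in the results was not tested, and in bulk RNA a change in the number of cells of a type and a change in RNA per cell cannot be told apart.

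By day 4 the level of 7 of the 10 genes had risen over day 0 and none had fallen. Of all tested genes, 28.6% were higher and 26.0% lower, 54.6% in either direction. With libraries scaled by total counts, 4 of the 10 genes had risen. By day 8 the level of 7 of the 10 had risen over day 0, again with no fall, and of 6 with total counts. Of all tested genes, 33.5% were higher and 29.9% lower, 63.4% in either direction. The largest rise was that of the fission gene Mtfp1, 21.9-fold at day 4 and 27.1-fold at day 8 against day 0, and the fusion genes Opa1 and Mfn2 came next, between 2.67-fold and 3.54-fold. Between day 4 and day 8 Mff and Pink1 rose and Oma1 fell, 3 of 10 beside 22.4% of all tested genes. With any 1 library left out this count was 0 to 2. The summed level of the 10 genes was 472 to 487 CPM at day 0, 762 to 970.1 at day 4 and 930.1 to 1024 at day 8.

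These counts have to be read against a transcriptome that changed widely. At an adjusted p under 0.05 (edgeR quasi-likelihood test, Benjamini-Hochberg over all genes), 54.6% of the tested genes differed between day 4 and day 0, 28.6% higher and 26.0% lower. For day 8 against day 0 the share was 63.4%, with 33.5% higher and 29.9% lower, and for day 8 against day 4 it was 22.4%, with 11.7% higher and 10.8% lower. The median log2 fold change of the 10 genes was 0.62 at day 4 and 0.95 at day 8 against day 0, beside -0.01 and 0.03 over all tested genes, and 0.29 at day 8 against day 4, beside 0.00282. Without day 4 replicate 2 the last median of the 10 genes was 0.07. Scaling by total counts in place of TMM shifted the median of all genes to -0.34 at day 4 and -0.33 at day 8 against day 0. It called 3073 genes higher and 5631 lower at day 4, against 4192 and 3806 with TMM, and 3632 higher and 6044 lower at day 8, against 4913 and 4377. With it the medians of the 10 genes were 0.29 at day 4 and 0.59 at day 8 against day 0, and 4 of the 10 genes passed as higher at day 4 (Mfn1, Mfn2, Opa1 and Mtfp1) and 6 at day 8 (those 4, Mff and Pink1). The 3 comparisons share libraries, so they are not independent of each other.

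**Figure D1:**
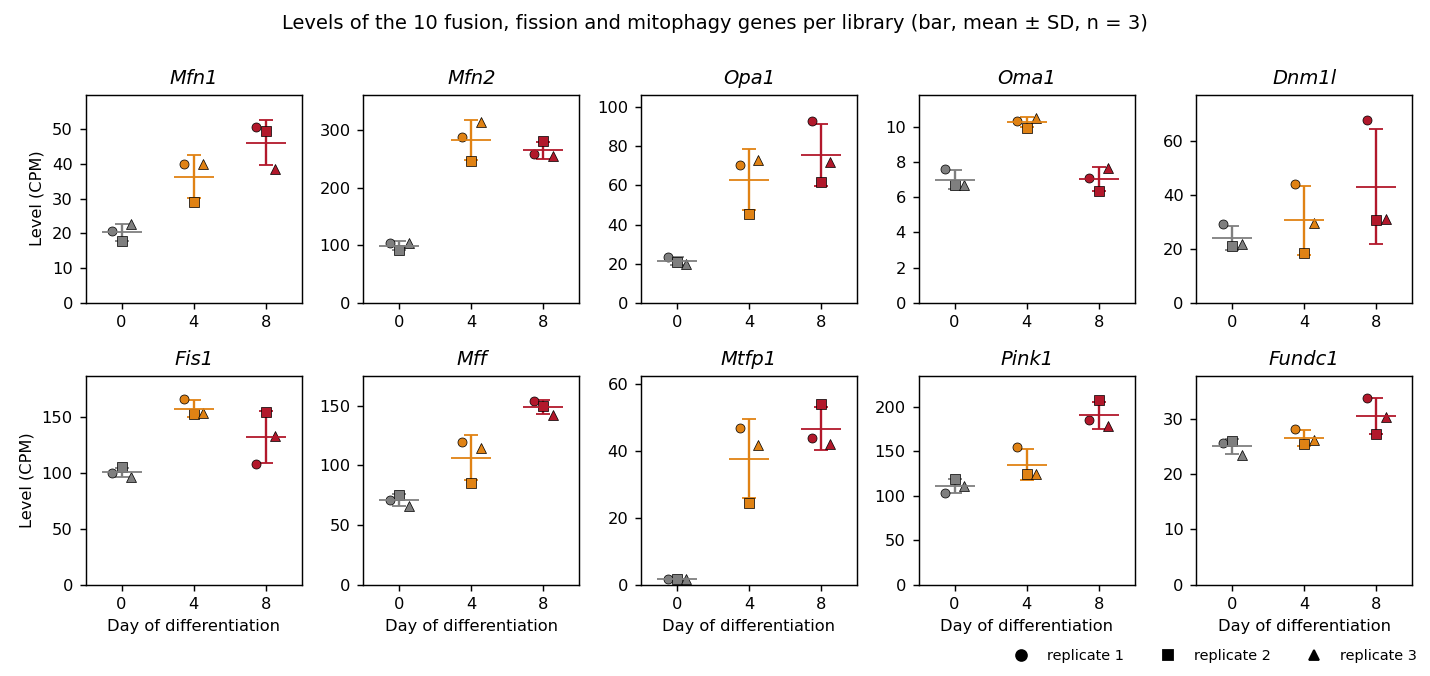
Level in CPM (vertical axis, from 0, a separate scale for each gene) by day of differentiation for the 10 genes. Each marker is 1 library, its shape gives the replicate number, and the bar with whiskers is the mean ± SD of 3 libraries. Mtfp1 lies near 1.72 CPM at day 0 and between 24.4 and 54.0 CPM on the later days, and Dnm1l spreads widely within days 4 and 8.

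Of the fusion genes, both mitofusins rose against day 0. Mfn2, an outer membrane GTPase that also tethers mitochondria to the endoplasmic reticulum, stood at 104, 91.2 and 103 CPM in the day 0 libraries, at 289, 246 and 315 CPM at day 4 and at 259, 282 and 255 CPM at day 8. Every library of days 4 and 8 was above every library of day 0, and days 4 and 8 overlapped. Mfn2 rose by day 4 (log2 fold change 1.51, SE 0.14, edgeR adjusted p = 9.32e-06) and was higher at day 8 than at day 0 (1.41, SE 0.14, adjusted p = 1.19e-05). The difference between day 8 and day 4 did not pass (-0.10, SE 0.13, adjusted p = 0.634).

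Mfn1, the other outer membrane GTPase, had lower counts. It was at 20.7, 17.6 and 22.6 CPM at day 0, at 39.9, 29.1 and 39.8 CPM at day 4 and at 50.5, 49.4 and 38.5 CPM at day 8. The day 0 libraries lay below all others, and day 8 replicate 3 fell within the day 4 range. The rises against day 0 passed at day 4 (log2 fold change 0.84, SE 0.17, adjusted p = 0.00211) and at day 8 (1.18, SE 0.17, adjusted p = 0.000178), and the difference between day 8 and day 4 did not (0.35, SE 0.17, adjusted p = 0.165; 0.16 without day 4 replicate 2).

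Opa1 encodes the dynamin-like GTPase of the inner membrane. Its level was 23.5, 20.8 and 19.9 CPM at day 0, 70.6, 45.2 and 73.2 CPM at day 4 and 93.2, 61.8 and 71.9 CPM at day 8. All 6 later libraries were above day 0, with day 4 replicate 2 the lowest of them and day 8 replicate 1 the highest. The log2 fold change against day 0 was 1.56 at day 4 (SE 0.21, adjusted p = 0.00013) and 1.82 at day 8 (SE 0.21, adjusted p = 3.69e-05). Day 8 against day 4 gave 0.26 (SE 0.20, adjusted p = 0.369), or 0.02 without day 4 replicate 2.

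The 250 bases before the start site of Opa1 are shown because they hold the only match in the searched windows of the 10 genes to a motif bound by nuclear respiratory factor 1, an activator of many nuclear genes for mitochondrial proteins. The sequence is from RefSeq's promoters on build GRCm38.p6, chr16:29579084-29579333, plus strand, while the counts were made on GRCm39. Capitals mark an inverted CCAAT box, from -194 to -190, and the factor's core CGCATGCG, a palindrome, from -58 to -51, counted back from the start site.
Opa1: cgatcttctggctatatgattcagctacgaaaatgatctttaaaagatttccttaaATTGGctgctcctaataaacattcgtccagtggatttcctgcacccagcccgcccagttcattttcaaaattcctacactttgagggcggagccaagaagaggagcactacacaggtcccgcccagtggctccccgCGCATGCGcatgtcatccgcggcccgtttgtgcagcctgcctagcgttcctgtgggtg
Searched on both strands over 300 bases, 250 before and 50 after each start site, the core was found in 1 of 15 promoter windows of the 10 genes and in 1.87% of all 32851 windows. The CCAAT box, bound by NF-Y, was in 6 of the 15 windows, of 6 genes, beside 37.4% of all windows. TCAAGGTCA, the element of estrogen-related receptors, was in 0 of the 15 windows and 0.423% of all, and the cAMP response element TGACGTCA in 0 of the 15 and 1.79% of all. These matches describe letters in these windows and were not tested for binding.

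Oma1 encodes the stress-activated inner membrane protease that cleaves OPA1 and so curbs fusion. It was the only gene of the group to pass both as higher at day 4 than at day 0 and as lower at day 8 than at day 4. Its level was 7.60, 6.70 and 6.69 CPM at day 0, 10.3, 9.94 and 10.5 CPM at day 4 and 7.11, 6.33 and 7.68 CPM at day 8. The day 4 libraries did not overlap those of day 0 or day 8, which covered nearly the same range. Oma1 rose by day 4 (log2 fold change 0.55, SE 0.17, adjusted p = 0.0164) and fell by day 8 against day 4 (-0.54, SE 0.17, adjusted p = 0.0402), and day 8 against day 0 gave 0.00847 (SE 0.17, adjusted p = 0.969). Leaving out day 0 replicate 2 (adjusted p = 0.0621), day 0 replicate 3 (0.0679) or day 4 replicate 3 (0.0512) ended the call of the rise. So did testing without a filter on low counts (0.0617) and scaling by total counts (0.22, adjusted p = 0.295). Of the 9 fits that left out 1 library, the fall passed only without day 4 replicate 2 (adjusted p = 0.0364), and it had an adjusted p from 0.0591 to 0.108 without any other library.

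Of the fission genes, Mtfp1 rose far more than the rest. It encodes an inner membrane protein, also called MTP18, whose loss is known to leave mitochondria elongated. Mtfp1 was at 1.75, 1.68 and 1.72 CPM at day 0, from 52 to 65 counts per library. It was at 46.9, 24.4 and 41.7 CPM at day 4 and at 44.0, 54.0 and 41.9 CPM at day 8. The later libraries were all far above day 0, and day 4 replicate 2, the library with less adipocyte RNA, was the lowest of them. The log2 fold change was 4.45 at day 4 (SE 0.26, adjusted p = 4.6e-07) and 4.76 at day 8 against day 0 (SE 0.26, adjusted p = 3.93e-07). Day 8 against day 4 did not pass (0.31, SE 0.22, adjusted p = 0.32), and the value was 0.02 without day 4 replicate 2.

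The 250 bases before the start site of Mtfp1 are shown because it was the gene with the largest change. They are from RefSeq on build GRCm38.p6, chr11:4095432-4095681, minus strand, written 5′ to 3′, and capitals mark an inverted CCAAT box from -145 to -141.
Mtfp1: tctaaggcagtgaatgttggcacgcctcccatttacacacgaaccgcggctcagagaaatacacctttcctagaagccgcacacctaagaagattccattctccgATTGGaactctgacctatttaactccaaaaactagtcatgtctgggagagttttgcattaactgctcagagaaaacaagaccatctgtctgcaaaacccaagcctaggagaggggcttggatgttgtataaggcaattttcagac
The GC content of the 300 base window of Mtfp1 was 48.7%, the lowest of the 15 windows, which reached 70.3%, beside a median of 52.7% over all windows.

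The genes closest to Mtfp1 in their course over the 9 libraries were Pdhb, a subunit of pyruvate dehydrogenase, Cycs, which encodes cytochrome c, and Dgat1, an enzyme of triglyceride synthesis. Closeness was the root mean square difference of log2 CPM after each gene was centred on its own mean, and it was 0.134 for Pdhb, 0.143 for Cycs and 0.156 for Dgat1. Pdhb averaged 50.3 CPM at day 0, 1015 at day 4 and 1206 at day 8. Cycs averaged 42.8, 813 and 1171 CPM on those days, and Dgat1 20.6, 525 and 528 CPM.

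Dnm1l encodes DRP1, the cytosolic dynamin that carries out fission, and it differed more between libraries of 1 day than any other gene of the group. It stood at 29.3, 21.0 and 21.9 CPM at day 0, at 44.0, 18.4 and 29.5 CPM at day 4 and at 67.7, 30.6 and 30.9 CPM at day 8. The library numbered 1 was the highest on each day, and at day 8 it had more than the other 2 libraries together. This order was not special to Dnm1l. Among genes of the lists below, Yme1l1 and Kif5b were also highest in replicate 1 on each day, while others, such as Prkaca, were not. No comparison passed for Dnm1l: the log2 fold change was 0.34 at day 4 (SE 0.36, adjusted p = 0.439) and 0.84 at day 8 against day 0 (SE 0.36, adjusted p = 0.0618), and 0.49 at day 8 against day 4 (SE 0.36, adjusted p = 0.337). Without day 8 replicate 1 the value at day 8 was 0.35 against day 0 (adjusted p = 0.348) and 0.00797 against day 4, and without day 4 replicate 1 the value at day 4 against day 0 was -0.00488. Day 8 against day 0 passed in 8 of 15 alternative fits, among them DESeq2 (adjusted p = 0.0441) and the fits without day 4 replicate 1 (0.0373), day 4 replicate 2 (0.032), day 8 replicate 2 (0.0458) or day 8 replicate 3 (0.0412). Another of the 8 was the edgeR fit with the replicate number as a block (adjusted p = 0.00961). The labels do not say that the numbers pair the libraries. In day 8 replicate 1, genes of the mitochondrial genome took 8.46% of the counts, against 4.94% and 5.19% in replicates 2 and 3. Replicate 1 had the highest share on the other days too. It was 1.7% against 1.5% and 1.6% at day 0, and 5.6% against 3.2% and 4.4% at day 4. The part of these differences between libraries in the Dnm1l level was not tested.

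**Figure D2:**
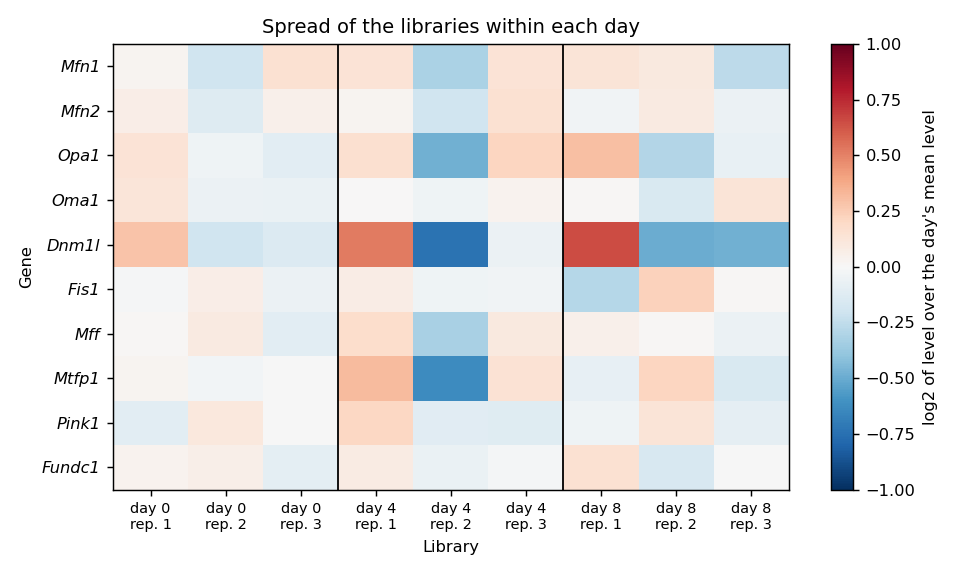
Log2 of each library's level over the mean level of its day (colour, red above and blue below) for the 10 genes (rows) in the 9 libraries (columns, grouped by day). The Dnm1l row holds the strongest colours, red in replicate 1 of each day, and day 4 replicate 2 is blue or near white in every row.

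Mff and Fis1 encode tail-anchored proteins of the outer membrane. MFF is a receptor that brings DRP1 to the membrane, a role that FIS1 is known for in yeast. Mff stood at 71.2, 75.4 and 65.8 CPM at day 0, at 119.9, 85.2 and 114 CPM at day 4 and at 154, 149.9 and 142 CPM at day 8. The 3 days did not overlap, and they ascended in the order of time. The log2 fold change was 0.59 at day 4 (SE 0.14, adjusted p = 0.00576) and 1.07 at day 8 against day 0 (SE 0.15, adjusted p = 0.000108), and 0.48 at day 8 against day 4 (SE 0.14, adjusted p = 0.0363). With total counts the day 4 value was 0.25 (adjusted p = 0.114). The later step passed in 3 of 15 alternative fits, of those without 1 library only without day 4 replicate 1 (adjusted p = 0.0226), and without day 4 replicate 2 it was 0.29 (adjusted p = 0.0818, and 0.0645 to 0.0895 without any other library).

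Fis1 had a different course. Its level was 99.9, 105 and 96.5 CPM at day 0, 166, 153 and 153 CPM at day 4 and 108, 155 and 133 CPM at day 8. Day 0 lay below both later days, and the day 8 libraries spread from just above day 0 into the day 4 range, with replicate 1 the lowest. Fis1 rose by day 4 (log2 fold change 0.65, SE 0.14, adjusted p = 0.00304) and was higher at day 8 than at day 0 (0.39, SE 0.14, adjusted p = 0.0313), and day 8 against day 4 did not pass (-0.25, SE 0.14, adjusted p = 0.216). The call of the day 8 rise was lost when any of the 3 day 0 libraries, day 8 replicate 2 or day 8 replicate 3 was left out (adjusted p from 0.0622 to 0.113). It was lost with no filter on low counts (0.0648), and with total counts the value was 0.03 (adjusted p = 0.867). With total counts the day 4 rise had an adjusted p of 0.0549.

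Pink1 encodes the kinase that gathers on damaged mitochondria and phosphorylates ubiquitin there, and it rose late. Its level was 103, 119 and 110.4 CPM at day 0, 155, 125 and 124 CPM at day 4 and 185, 208 and 178 CPM at day 8. Day 8 stood above all earlier libraries, and the lowest of day 4, at 124 CPM, was just above the highest of day 0, at 119 CPM. Day 4 against day 0 did not pass (log2 fold change 0.28, SE 0.14, adjusted p = 0.102; 0.33 and 0.0436 without day 4 replicate 2, and -0.05 with total counts). Pink1 was higher at day 8 than at day 0 (0.78, SE 0.14, adjusted p = 0.000557) and than at day 4 (0.50, SE 0.14, adjusted p = 0.026). The later step passed in 9 of 15 alternative fits. The fits lacking day 0 replicate 3, either of day 4 replicates 2 and 3, or either of day 8 replicates 1 and 2 gave an adjusted p from 0.0507 to 0.0976.

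Fundc1, an outer membrane receptor that binds LC3 during mitophagy in low oxygen, passed in no comparison. It was at 25.6, 25.9 and 23.3 CPM at day 0, at 28.1, 25.4 and 26.1 CPM at day 4 and at 33.7, 27.2 and 30.3 CPM at day 8. Days 0 and 4 overlapped, as did days 4 and 8, and day 8 lay above day 0. The log2 fold change was 0.09 at day 4 (SE 0.13, adjusted p = 0.589), 0.28 at day 8 against day 0 (SE 0.13, adjusted p = 0.0766) and 0.20 at day 8 against day 4 (SE 0.13, adjusted p = 0.293). Day 8 against day 0 passed without day 8 replicate 2 (0.36, adjusted p = 0.0364).

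**Figure D3:**
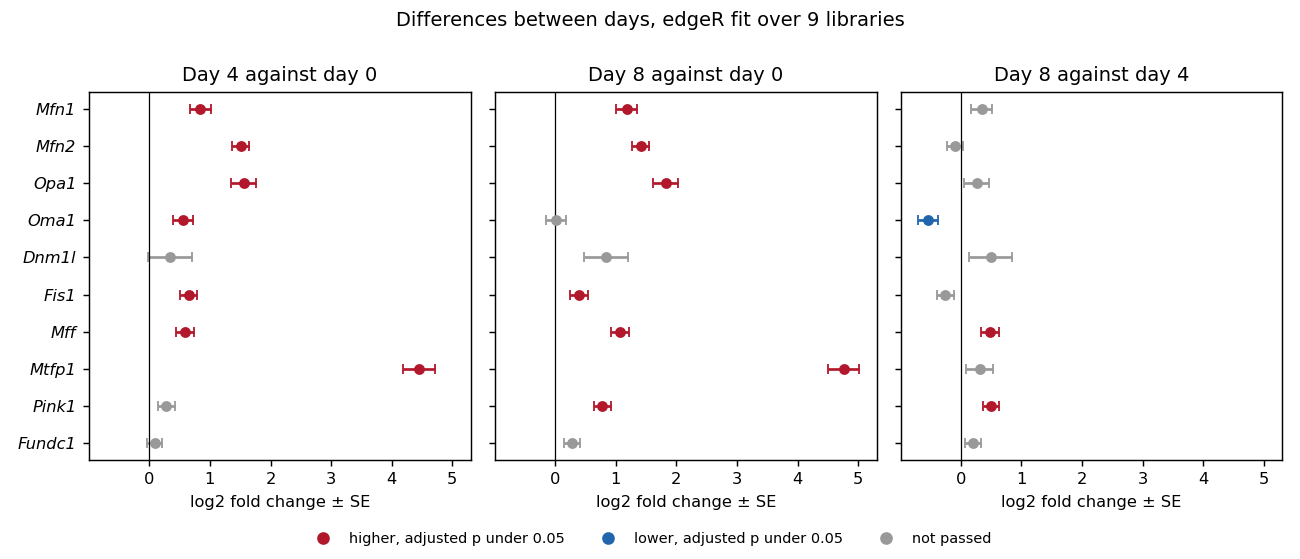
Log2 fold change (horizontal axis, with its standard error) of the 10 genes in each of the 3 comparisons, from the edgeR fit over 9 libraries. Red marks genes higher and blue genes lower at an adjusted p under 0.05, and grey those that did not pass: 7 genes are red at day 4 and 7 at day 8 against day 0, and Mff and Pink1 are red and Oma1 blue at day 8 against day 4.

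Pairs of genes with related roles were compared by the ratio of their counts in the same library, which needs no scaling between libraries. Across the 12 exact permutation tests, 4 ratios in 3 comparisons, the smallest two-sided p that 3 against 3 libraries allow is 0.1, so none can pass 0.05. The adjusted p was 0.133 wherever the libraries of a pair of days did not overlap and the raw p was 0.1. The Mfn2 to Mfn1 ratio was 5.03, 5.17 and 4.58 at day 0, 7.25, 8.45 and 7.91 at day 4 and 5.12, 5.71 and 6.62 at day 8. Day 4 stood clear of both other days. The log2 ratio was higher at day 4 than at day 0 by 0.68 and differed at day 8 from day 4 by -0.44, each with an exact permutation p = 0.1, and days 8 and 0 overlapped (0.23, exact permutation p = 0.2).

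The next ratio sets the RNA counts of Opa1 against those of Oma1, the gene of a protease that cleaves OPA1. It does not give a ratio of proteins. Yme1l1, counted below among fusion partners and regulators of OPA1 processing, was higher at day 8 than at day 0 (log2 fold change 1.19, edgeR adjusted p = 0.00642). No ratio to Yme1l1 was tested. The Opa1 to Oma1 ratio was 3.09, 3.10 and 2.98 at day 0, 6.85, 4.55 and 6.97 at day 4 and 13.1, 9.77 and 9.36 at day 8. The 3 days did not overlap, with log2 differences of 0.98 at day 4 and 1.80 at day 8 against day 0 and 0.82 at day 8 against day 4 (exact permutation p = 0.1 each). The Mff to Fis1 ratio was 0.713, 0.717 and 0.682 at day 0, 0.721, 0.556 and 0.744 at day 4 and 1.42, 0.969 and 1.07 at day 8. Day 8 was above both earlier days, by 0.69 against day 0 and 0.77 against day 4 on the log2 scale (exact permutation p = 0.1 each), and days 4 and 0 overlapped. The Pink1 to Fundc1 ratio was 4.04, 4.59 and 4.73 at day 0, 5.52, 4.92 and 4.76 at day 4 and 5.49, 7.64 and 5.89 at day 8. Its log2 difference was 0.50 at day 8 against day 0 and 0.19 at day 4 against day 0 (exact permutation p = 0.1 each), and 0.31 at day 8 against day 4, where the libraries overlapped (exact permutation p = 0.2).

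**Figure D4:**
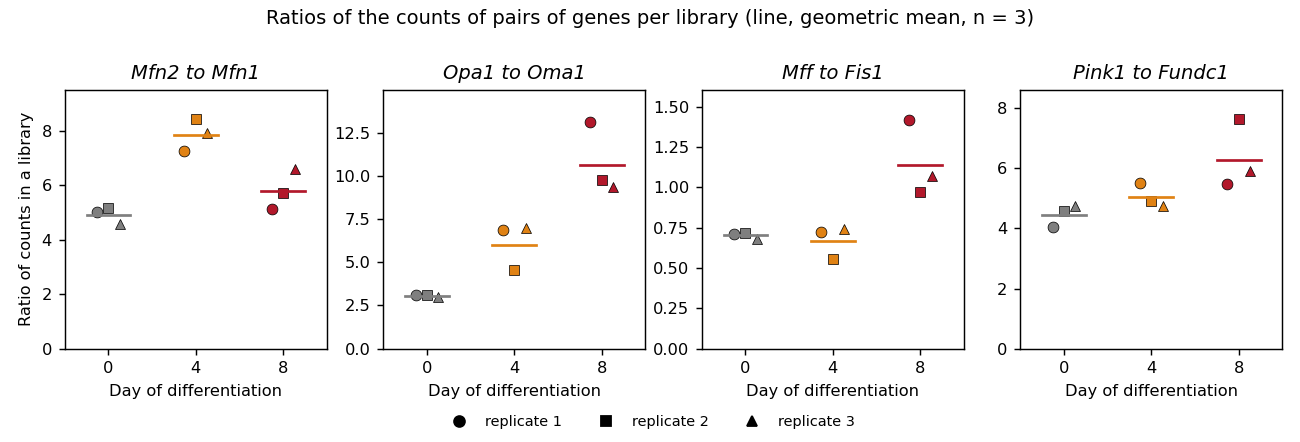
Ratio of the counts of 2 genes in each library (vertical axis, from 0) by day of differentiation, with the geometric mean of 3 libraries as a line; marker shape gives the replicate number. Mfn2 to Mfn1 peaks at day 4, Opa1 to Oma1 ascends over the 3 days and lies between 9.36 and 13.1 at day 8, and Mff to Fis1 sets day 8 apart.

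Levels of different genes were set side by side per kilobase of exon, as RPKM, the CPM divided by the exon length in kilobases, with lengths from the GENCODE M21 annotation. At day 0 Fis1 had the highest level with 58.6 ± 2.53 RPKM, before Pink1 with 41.5 ± 2.95, Mfn2 with 19.2 ± 1.38, Fundc1 with 10.6 ± 0.600, Mff with 7.26 ± 0.492 and Dnm1l with 4.63 ± 0.874 (SD, n = 3). Mfn1 (3.32 ± 0.406 RPKM), Oma1 (3.26 ± 0.244) and Opa1 (2.72 ± 0.234) followed, and the range of Mfn1 overlapped those of the other 2. Mtfp1 was last with 0.988 ± 0.0197 RPKM.

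At day 8 Mtfp1 was the fourth of the 10, at 26.8 ± 3.72 RPKM, behind Fis1 (77.1 ± 13.5), Pink1 (71.2 ± 5.77) and Mfn2 (51.1 ± 2.83). The libraries of Fis1 and Pink1 overlapped, and Mfn2 and Mtfp1 were each clear of their neighbours. Mff followed with 15.2 ± 0.583 RPKM, and then Fundc1 (12.9 ± 1.38), Opa1 (9.60 ± 2.03), Dnm1l (8.27 ± 4.10) and Mfn1 (7.54 ± 1.08), each overlapping the next. Oma1 was last at 3.28 ± 0.316 RPKM. Day 4 had the order Fis1 (91.9 ± 4.38), Mfn2 (54.6 ± 6.67), Pink1 (50.4 ± 6.61) and Mtfp1 (21.7 ± 6.77), in which Mfn2 and Pink1 overlapped. An exon length that includes exons the cells do not use lowers a gene's level on this scale.

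The other genes of these processes were counted in 7 lists. Among 13 fusion partners and regulators of OPA1 processing, 12 were higher and 1 lower at day 8 than at day 0 (median log2 fold change 1.82, beside 0.03 over all tested genes). Of all tested genes 33.5% were higher and 29.9% lower in that comparison. Pld6, an outer membrane phospholipase, had the largest fold, from 5 to 12 counts in the day 8 libraries against 0 to 2 in those of day 0. Miga2, an outer membrane protein that links mitochondria to the endoplasmic reticulum and lipid droplets, was at 173 ± 12.7 CPM at day 8 and 24.4 ± 2.40 CPM at day 0 (SD, n = 3; 2.82, SE 0.20). The m-AAA protease subunit Afg3l2 was at 190 ± 19.3 CPM at day 8 against 39.0 ± 0.0283 CPM at day 0 (2.28, SE 0.16). The gene that fell was Miga1, the paralog of Miga2, with 1.29 ± 0.336 CPM at day 8 and 3.11 ± 0.488 CPM at day 0 (-1.26, SE 0.29, adjusted p = 0.00315). Parl, the rhomboid protease that cleaves PINK1, was the gene of this list that rose between day 4 and day 8 (0.55, adjusted p = 0.0433). In that interval 0 genes of the list fell, and of all tested genes 11.7% rose and 10.8% fell. Without day 4 replicate 2 the counts of the list were 0 higher and 2 lower.

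The 17 other genes of fission and its regulation were not sorted by whether they promote or restrain it. Their count therefore gives no direction for the process. Of the 17, 10 were higher and 5 lower at day 8 than at day 0 (median 0.62), and Dnm2 and Ppp3cb did not pass. Among all tested genes 33.5% were higher and 29.9% lower. At day 4 against day 0, 7 of the 17 were higher and 4 lower (median 0.03), beside 28.6% and 26.0% of all tested genes. Prkaa2, the alpha2 catalytic subunit of AMP-activated kinase, was at 15.5 ± 3.03 CPM at day 8 against 0.401 ± 0.237 CPM at day 0 (5.23, SE 0.53). Inf2, a formin that builds actin at sites of constriction, was at 17.2 ± 1.09 CPM at day 8 against 66.3 ± 3.33 CPM at day 0 (-1.94, SE 0.26). The other genes that fell were Gdap1, Mtfr2, Ppp3ca and the mitotic kinase Cdk1. For Ppp3ca the libraries of the 2 days overlapped (edgeR adjusted p = 0.0460). Gdap1 had 0 to 3 counts per library at day 8 against 20 to 52 at day 0. With total counts 8 genes of the list were higher and 7 lower, and the median was 0.26.

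Among 19 other tested mitophagy genes 15 were higher and 0 lower at day 8 than at day 0 (median 1.06; 14 higher and 2 lower with total counts, 15 and 1 without day 4 replicate 2), and 13 were higher at day 4 (median 0.63; 7 higher and 1 lower with total counts). Over all tested genes, 33.5% were higher and 29.9% lower at day 8 than at day 0, and 28.6% and 26.0% at day 4. Bnip3, a mitophagy receptor, reached 1310 ± 91.2 CPM at day 8 against 94.0 ± 21.9 CPM at day 0 (3.80, SE 0.42, adjusted p = 2.82e-05). At day 4 Bnip3 was at 1440 and 1228 CPM in replicates 1 and 3 and at 394 CPM in replicate 2. Optn, an autophagy receptor for ubiquitin-tagged mitochondria, was at 82.8 ± 12.1 CPM at day 8 and 29.0 ± 9.01 CPM at day 4 (1.51, SE 0.22, adjusted p = 0.00177). Between day 4 and day 8, 6 genes of this list rose and 2 fell (4 and 2 without day 4 replicate 2). Of all tested genes 11.7% rose and 10.8% fell in that interval.

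All 10 genes of the MICOS complex and its partners, which hold the cristae junctions where OPA1 also acts, were higher at day 8 than at day 0 (median 2.24), with Apoo at 3.22 (SE 0.23) and Chchd6 at 3.08 (SE 0.28). All 9 tested outer membrane import and channel genes (median 1.31; 7 with total counts) and all 13 inner membrane and matrix genes (median 2.65; 12 with total counts) were higher too. The median of the 10 fusion, fission and mitophagy genes in the same comparison was 0.95. Of 8 genes of transport along microtubules 4 were higher and 3 lower (median 0.43), or 3 and 3 with total counts (median 0.07). These counts stand beside 33.5% higher and 29.9% lower among all tested genes. Rhot2, an outer membrane GTPase that anchors the motor, was at 80.5 ± 11.3 CPM at day 8 and 9.34 ± 0.408 CPM at day 0 (3.11, SE 0.21), and the genes that fell were Trak2, Armcx1 and Armcx3. The lists were chosen with earlier results of these data known, and whether 1 list differs from another was not tested.

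**Figure D5:**
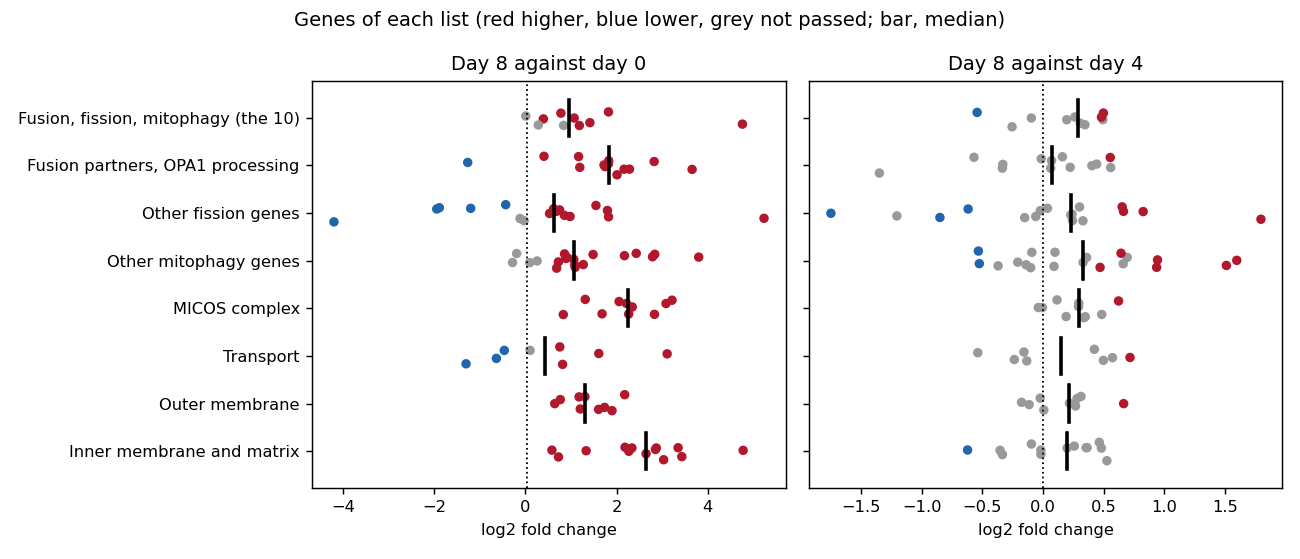
Log2 fold change (horizontal axis) of every tested gene of 8 lists (rows) at day 8 against day 0 and at day 8 against day 4. Points are genes, red where higher and blue where lower at an adjusted p under 0.05, black bars are list medians and the dotted line is the median of all tested genes. At day 8 against day 0 the medians run from 0.43 for transport to 2.65 for inner membrane and matrix genes, with 0.95 for the 10 fusion, fission and mitophagy genes.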

How the data were processed

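The authors deposited 1 table with the raw count of each Ensembl gene in 9 libraries, not normalized. Per the labels' protocols, cells were lysed with detergent and cycloheximide, the RNA came from the cleared supernatant, which can under-represent nuclear RNA, and a stranded kit for total RNA was used. Per the submitters' processing notes, HISAT2, featureCounts and build GRCm39 were used; versions, strand setting and annotation are not given in the sources used here. In GENCODE M21, Mff, Mfn2, Dnm1l and Pink1 overlap other genes, and those in the table had at most 28 counts in a library.

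Counts were analysed with edgeR 4.0.16 in R 4.3.3: filterByExpr (minimum count 10), TMM, and 1 quasi-likelihood fit over 9 libraries without covariates, 6 residual degrees of freedom, two-sided tests and a threshold of 0.05. The standard error is the absolute log2 fold change over the square root of its F statistic. DESeq2 1.42.0, other scalings, no filter, a replicate block, fits of 2 days and fits without 1 library were alternatives. List counts and the median of the 10 genes with total counts and without day 4 replicate 2 were added after seeing the data. Ratios were tested with scipy 1.17.1, and the fit was run on simulated counts in which few genes changed, as many up as down. That run does not check the scaling in a transcriptome that changed as widely as this one, or a library that stands apart. Every pair of libraries of a day differed beyond sampling noise, with a chi-square of 16.1 to 234 per degree of freedom, and each counted as 1 replicate.

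The members, lists, motifs and tests were chosen with earlier results of these data known. Named from the other lists were up to 4 called genes with the largest change at day 8 against day 0, up to 2 called the other way, and genes of counts of 5 or fewer. The rule for likeness also covered the member with the largest negative change at day 8 against day 0, and there was none. Some genes of the lists are counted but not reported here by name.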

Additional observations from a re-analysis of the deposited data

How the results depend on the processing

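The 12 ratio differences kept their sign in the alternatives run with 1 exception: Mff to Fis1 at day 4 against day 0 was 0.06 without day 4 replicate 2, against -0.07. Of the alternative counts of all genes and of the 10 genes, 15 moved by over 1.5 times and 75 did not. The count of the 10 genes called at day 4 against day 0 was 4 with total counts, against 7. At day 8 against day 4 it was 1 with no filter and 0 in the fit of the 2 days alone, against 3, and 0 to 2 with 1 library left out: 0 without day 0 replicate 3, day 4 replicate 3, day 8 replicate 1 or day 8 replicate 2, and 1 without either of day 0 replicates 1 and 2, day 4 replicate 2 or day 8 replicate 3. Between day 8 and day 4 the count of all changed genes was 1901 in the fit of those 2 days alone, against 3285, and 1894 to 4185 with 1 library left out, with 1894 without day 4 replicate 3, 2107 without day 8 replicate 1 and 2012 without day 8 replicate 2. The cause was not tested.

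Of single genes, 13 alternative values changed sign, none of a called result. With total counts, day 4 against day 0 gave -0.00654 for Dnm1l, -0.0515 for Pink1 and -0.24 for Fundc1, and day 8 against day 0 gave -0.0745 for Fundc1 and -0.35 for Oma1. Oma1 at day 8 against day 0 was also -0.0118 with DESeq2's size factors, -0.012 with its test, -0.000643 in the fit of the 2 days alone and -0.0535 to 0.0843 with 1 library left out. Dnm1l at day 4 against day 0 ran from -0.00488 to 0.61 with 1 library left out.

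With the replicate number as a block, 8070 genes and 7 of the 10 were called at day 4 against day 0. At day 8 the block gave 9368 genes and 8 of the 10 against day 0, and 3105 genes and 2 of the 10 against day 4: Dnm1l passed at day 8 against day 0 (adjusted p = 0.00961) and Mff did not at day 8 against day 4 (0.0514). The labels do not say that the numbers pair the libraries. Deviations of same-numbered libraries correlated at 0.273, 0.138 and 0.0859 between days 0 and 8, each the best match of its day 0 library at day 8. They correlated at -0.00881 to 0.0662 between days 0 and 4 and at -0.126 to 0.0611 between days 4 and 8, where not every library matched its own number best. Whether such matches exceed chance was not tested, so they do not show that the numbers pair the libraries. The ratios rest on 3 libraries a day and cannot pass 0.05.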
